A study of Homo sapiens with 8 samples.

Results

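The genes described here are 9 genes of MHC class I antigen presentation, taken from the deposited count table by their gene symbol and described across the study's 4 conditions. They are the heavy chains HLA-B, HLA-C, HLA-E and HLA-F, the light chain B2M, the peptide transporter subunits TAP1 and TAP2, the peptide loading chaperone TAPBP and the regulator NLRC5. The table lists 61517 genes, all 9 members are in it, and all 9 were among the 15554 genes that passed the filter on low counts. The lowest count of any member in any library was 134 reads.

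MHC class I molecules display peptides from inside the cell to T cells and natural killer cells. A heavy chain folds with beta-2 microglobulin in the endoplasmic reticulum, where the TAP1/TAP2 transporter pumps in peptides cut by the proteasome. Tapasin, the product of TAPBP, holds an empty class I molecule next to that transporter until a fitting peptide is bound. NLRC5 is the transactivator of class I promoters, and loss of class I presentation is a known route by which tumour cells escape T cells.

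The cells were KYSE150, a human esophageal squamous cell carcinoma line, and poly(A)-selected RNA was sequenced in 8 libraries, 2 per condition. The hypoxia+oxamate+NALA cells were held in hypoxia with both oxamate (sodium oxamate, which inhibits lactate dehydrogenase) and NALA, which is read here as sodium lactate from the treatment description in the labels. The hypoxia+oxamate cells received oxamate in hypoxia, the hypoxia cells were kept in hypoxia without drug, and the normoxia cells were kept in normoxia without drug. All came from the same line, grown in RPMI-1640 with fetal bovine serum, and the labels give no oxygen level, dose or duration. Below, values with NALA are those of the hypoxia+oxamate+NALA libraries and values with oxamate those of the hypoxia+oxamate libraries. The title of the series links the experiment to HIF-1α lactylation and immune evasion.

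Library totals ran from 21845676 to 29406061 counts, and a floor of 3 counts equals 0.102 to 0.137 CPM, the usual scaling of counts to library size. Levels below are CPM after scaling by TMM, a trimmed-mean library scaling, and changes are fitted log2 fold changes ± standard error from the quasi-likelihood test of edgeR, with p-values adjusted over all 15554 tested genes and passed under 0.05. Between the libraries of a group, chi-square per degree of freedom over genes was 4.59 with NALA and 1.84 to 2.08 in the other conditions, above sampling noise. The fit shares the spread over the 4 conditions, so standard errors and p-values of comparisons with NALA may be too small. Whether the libraries of a group were separate cultures is not stated in the labels, so p-values here cover the spread between libraries alone, which may be technical. Fewer cells expressing a gene and less RNA per cell cannot be told apart in these bulk libraries. The 10 squamous epithelial markers, led by the keratin KRT5, summed to 2911 to 4291 CPM of the library totals in every library. Of 12 leukocyte markers, 4 were at 0 in every library, among them CD3D, MS4A1 and TYROBP. The summed leukocyte level was 4.03 and 4.48 CPM with NALA, 3.16 and 2.77 CPM with oxamate, 7.02 and 6.84 CPM in hypoxia and 2.65 and 3.67 CPM in normoxia, most of it CSF1R. Of 8 fibroblast and endothelial markers, 2 (COL3A1 and DCN) were at 0 in every library. Their sum was highest in hypoxia, at 10.96 and 10.6 CPM against 4.28 and 4.33 CPM in normoxia, most of it COL1A1. The part of these low levels in the results on class I genes was not tested.

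By GENCODE release 29 on GRCh38, 7 of the 9 genes lie on chromosome 6, in the MHC region. HLA-F spans chr6:29722775-29738528 and HLA-E chr6:30489467-30494205, both on the plus strand. HLA-C spans chr6:31268749-31272130 and HLA-B chr6:31269491-31357188, both on the minus strand. TAP2 at chr6:32821833-32838780 and TAP1 at chr6:32845209-32853978 are neighbours on the minus strand, and TAPBP lies at chr6:33299694-33314387 on the same strand. B2M lies at chr15:44711487-44718877 and NLRC5 at chr16:56989485-57083531, both on the plus strand.

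Of the 9 genes, 7 matched a promoter window in RefSeq (GRCh38.p14), which runs from 250 bases before to 50 bases after the gene's start, 300 bases in all. HLA-E and NLRC5 were not matched. The 5 windows printed here belong to 3 of the genes that rose in hypoxia (HLA-B, HLA-C and B2M) and to TAP2 and TAPBP. The last 2 had the widest ranges over the conditions and moved in opposite directions in hypoxia and with oxamate. TAPBP, HLA-F and TAP1 rose in hypoxia too, and the matched windows of HLA-F and TAP1 are not printed. They are written 5′ to 3′ on the strand of the gene, at chr6:31357130-31357429 (minus, HLA-B), chr6:31272043-31272342 (minus, HLA-C), chr15:44711267-44711566 (plus, B2M), chr6:32838690-32838989 (minus, TAP2) and chr6:33314029-33314328 (minus, TAPBP). Capitals mark matches to 6 short motifs searched on both strands: ACGTG and GCGTG (cores of the hypoxia response element), CCAAT (the Y box) and TGACG (the short form of the cyclic AMP response element, part of the X2 box of class I promoters), with the interferon-stimulated response element and the kappa B element, whose matches are 10 bases long.
HLA-B: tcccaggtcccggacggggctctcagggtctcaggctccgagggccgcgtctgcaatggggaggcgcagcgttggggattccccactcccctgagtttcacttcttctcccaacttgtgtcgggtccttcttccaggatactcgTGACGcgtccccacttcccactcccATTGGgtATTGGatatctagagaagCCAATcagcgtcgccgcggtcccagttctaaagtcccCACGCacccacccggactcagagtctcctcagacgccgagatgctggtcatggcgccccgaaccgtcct
HLA-C: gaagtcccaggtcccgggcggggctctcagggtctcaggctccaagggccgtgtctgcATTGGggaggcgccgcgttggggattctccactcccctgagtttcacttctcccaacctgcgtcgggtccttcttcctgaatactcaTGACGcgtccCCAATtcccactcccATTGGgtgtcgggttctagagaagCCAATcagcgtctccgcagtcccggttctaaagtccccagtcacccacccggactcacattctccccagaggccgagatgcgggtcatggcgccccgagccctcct
B2M: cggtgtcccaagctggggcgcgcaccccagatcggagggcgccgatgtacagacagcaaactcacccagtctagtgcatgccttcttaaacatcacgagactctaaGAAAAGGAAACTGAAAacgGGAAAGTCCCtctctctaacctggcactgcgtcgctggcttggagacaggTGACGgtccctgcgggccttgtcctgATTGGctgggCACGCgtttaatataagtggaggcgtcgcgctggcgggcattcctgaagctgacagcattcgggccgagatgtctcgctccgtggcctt
TAP2: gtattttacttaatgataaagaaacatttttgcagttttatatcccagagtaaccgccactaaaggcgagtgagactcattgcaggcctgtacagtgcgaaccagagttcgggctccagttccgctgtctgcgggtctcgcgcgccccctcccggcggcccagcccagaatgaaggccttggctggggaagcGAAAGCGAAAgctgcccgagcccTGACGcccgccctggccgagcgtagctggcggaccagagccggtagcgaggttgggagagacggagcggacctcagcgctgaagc
TAPBP: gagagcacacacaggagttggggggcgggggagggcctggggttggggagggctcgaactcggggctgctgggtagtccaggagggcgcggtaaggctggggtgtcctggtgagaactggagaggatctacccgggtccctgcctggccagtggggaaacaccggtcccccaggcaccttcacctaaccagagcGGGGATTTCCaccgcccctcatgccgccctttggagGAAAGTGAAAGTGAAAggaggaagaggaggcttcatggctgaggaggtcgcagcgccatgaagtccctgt

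The HLA-B and HLA-C windows were alike at 88.5% of aligned positions, gaps included, and both hold TGACG and several copies of CCAAT upstream of the start. The B2M window holds every motif but ACGTG, including overlapping copies of the interferon element 144 and 138 bases upstream. TAP2 holds 1 interferon element, 58 bases upstream, and TGACG. TAPBP holds overlapping copies of the interferon element 20 and 14 bases upstream and a kappa B element. Of the 7 matched members, 5 hold the searched form of the interferon element (B2M, HLA-F, TAP1, TAP2 and TAPBP). That form occurs in 3.57% of all 35116 windows of that length. The searched form of the kappa B element is in 3 (B2M, TAP1 and TAPBP), against 1.91% of all windows. CCAAT is in 5 (34.6% of all windows), TGACG in 4 (24.6%) and GCGTG in 4 (36.5%). ACGTG is in none of the 7 and in 21.4% of all windows. A match here is a run of letters and was not tested as a binding site. Other spellings of the interferon and kappa B elements were not searched, so a window without a match, such as that of HLA-B or HLA-C, may still hold them.

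Per length, B2M, HLA-E and HLA-C were the most abundant of the members in every condition, while HLA-B lay below TAP1, TAP2 and TAPBP. Per kilobase of the longest principal transcript, HLA-E stood at 140.1 CPM with NALA, 152.2 with oxamate, 152.5 in hypoxia and 74.6 in normoxia. B2M stood at 185.6 CPM per kilobase with NALA, 212.5 with oxamate, 134.2 in hypoxia and 90.7 in normoxia. HLA-C lay at 31.9 to 53.7 CPM per kilobase and HLA-B, a classical chain like it, at only 3.70 to 6.48. HLA-F lay at 14.4 to 24.9, TAP1 at 6.54 to 10.8, TAP2 at 10.3 to 31.0, TAPBP at 6.83 to 34.3 and NLRC5 at 1.29 to 3.12 CPM per kilobase. The order of the members differed between conditions: in hypoxia HLA-E was above B2M and TAPBP above TAP2 per kilobase, and in the other conditions both orders were turned. For TAPBP and TAP2 the same held in CPM not divided by length. For HLA-E and B2M it did not, since in such CPM HLA-E was above B2M in every condition. That turn rests on the lengths used, 2601 bases for HLA-E and 1705 for B2M, the longest of 3 principal transcripts of B2M. The labels do not give the HLA alleles of the line, and reads of HLA genes were counted against reference alleles. Between 0.977% and 5.38% of the 50-base windows of the HLA heavy chain transcripts also occur in transcripts of another gene, so a part of the reads of these close relatives can be shared.

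**Figure D1:**
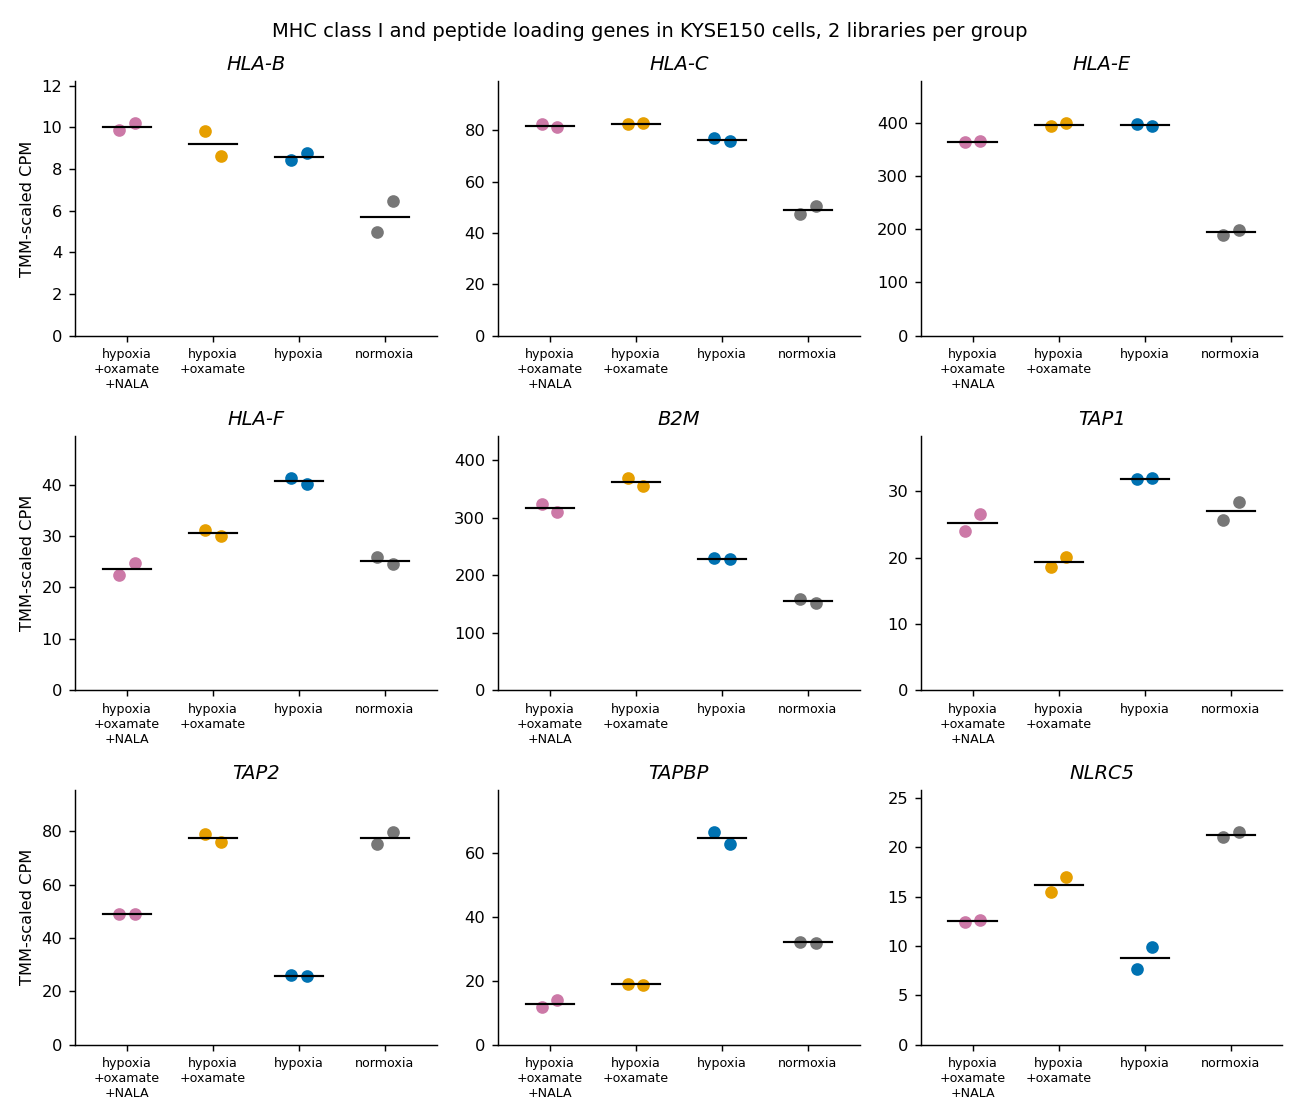
TMM-scaled CPM of each of the 9 genes, 1 panel per gene, with a point for each library and a line for the mean of the 2 libraries in hypoxia+oxamate+NALA, hypoxia+oxamate, hypoxia and normoxia; each vertical axis starts at 0 and has its own scale. HLA-E and HLA-C are lowest in normoxia, TAP2 and NLRC5 are lowest in hypoxia, and TAPBP peaks in hypoxia at 66.6 and 63.1 CPM.

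Hypoxia against normoxia asks how oxygen shortage alone moved these transcripts. All 4 HLA heavy chains, B2M, TAP1 and TAPBP rose in hypoxia, by 0.24 to 1.03 on the log2 scale. TAP2 and NLRC5 fell (-1.58 and -1.28). The 2 transporter subunits thus moved in opposite directions, and so did the class I chains and their transactivator. In counts, 7 of 9 members were called higher and 2 lower, where 36.7% of all tested genes were called higher and 36.8% lower (73.5% in either direction). Tested against a fold change of 1.5, 3 members were called higher (HLA-E, HLA-F and TAPBP) and 2 lower (TAP2 and NLRC5), where 18.5% and 18.3% of all tested genes were. The median of the members was 0.58, and the median of all tested genes was 0.02. The rise of TAP1 was lost without normoxia replicate 1 (0.16, adjusted p = 0.102).

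Oxamate in hypoxia against hypoxia alone asks what inhibition of lactate dehydrogenase did under low oxygen. B2M, TAP2 and NLRC5 rose by 0.66, 1.59 and 0.89, and HLA-F, TAP1 and TAPBP fell (-0.41, -0.72 and -1.78). HLA-C rose by 0.11 with TMM but fell by 0.21 when libraries were scaled to their totals alone (adjusted p = 0.000154). That call of HLA-C was also lost without either hypoxia library (adjusted p = 0.0539 and 0.106), with upper quartile scaling and without a count filter. HLA-B did not pass (0.10 ± 0.12). HLA-E did not pass either (-0.002 ± 0.030), but its call depended on the setting. It was called higher with RLE (0.08, adjusted p = 0.021) and without either hypoxia+oxamate library (0.12 and 0.094, adjusted p = 0.0156 and 0.0456), and lower with upper quartile scaling (-0.07, adjusted p = 0.0484) and library totals (-0.32, adjusted p = 1.72e-09). In counts, 4 of 9 members were called higher and 3 lower, where 35.7% of all tested genes were called higher and 44.8% lower (80.5% in either direction), so the share of members called was close to that of all genes. Beyond a fold change of 1.5, 3 members were called higher (B2M, TAP2 and NLRC5) and 2 lower (TAP1 and TAPBP), where 21.2% and 31.6% of all tested genes were. The median of the members was 0.10, and that of all tested genes was -0.20.

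NALA added to oxamate in hypoxia, against oxamate in hypoxia, asks what returning lactate did. HLA-E, HLA-F, B2M, TAP2, TAPBP and NLRC5 fell, with log2 fold changes of -0.66 to -0.12. TAP1 was the only member called higher, by 0.39 ± 0.079, and that call was lost without hypoxia+oxamate replicate 1 (0.23, adjusted p = 0.0502). HLA-B at 0.12 ± 0.12 and HLA-C at -0.01 ± 0.044 did not pass, but HLA-C was called lower with upper quartile scaling (-0.21, adjusted p = 0.000367) and with at least 50 counts in 2 libraries (-0.13, adjusted p = 0.00990). In counts, 1 of 9 members was called higher and 6 lower, where 33.2% of all tested genes were called higher and 31.7% lower (64.9% in either direction). The median of the members was -0.20, and that of all tested genes was -0.02. Tested against a fold change of 1.5, no member was called higher or lower, where 17.4% and 7.12% of all tested genes were.

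**Figure D2:**
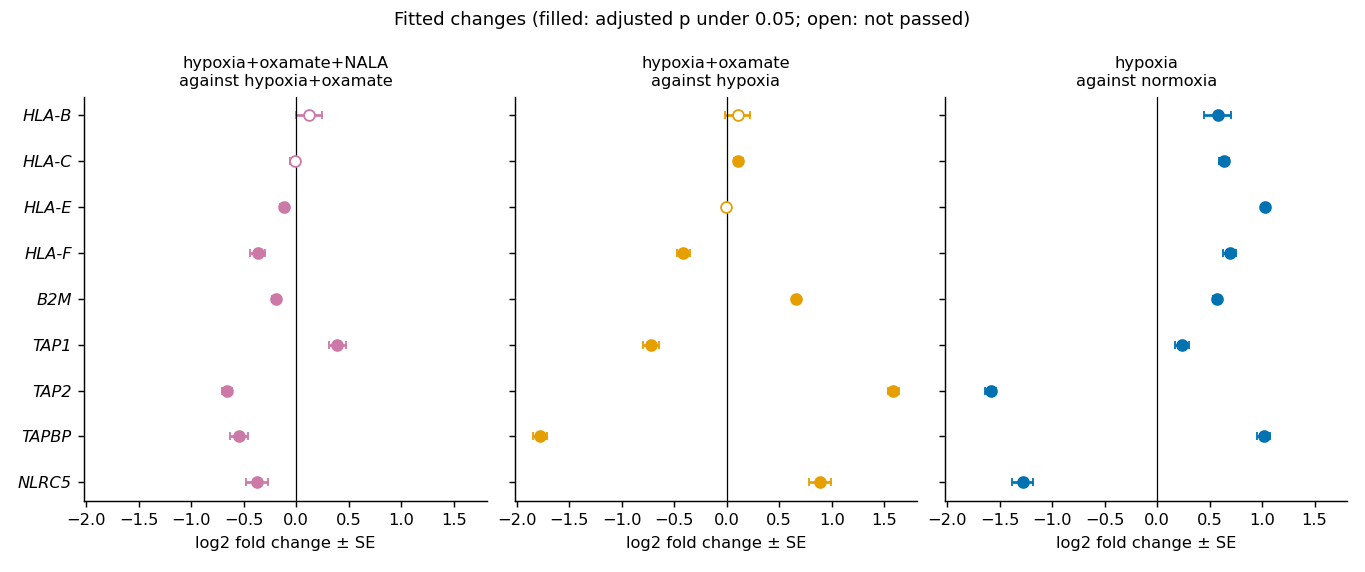
Fitted log2 fold changes (points) with standard errors (bars) of the 9 genes for hypoxia+oxamate+NALA against hypoxia+oxamate, hypoxia+oxamate against hypoxia, and hypoxia against normoxia; filled points had an adjusted p under 0.05 and open points did not. TAP2 and TAPBP take opposite signs in hypoxia (-1.58 and 1.01) and opposite signs again with oxamate (1.59 and -1.78), and both fell with NALA (-0.66 and -0.54).

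The 2 classical heavy chains changed little once cells were in hypoxia. HLA-C, which presents peptides to T cells and is a ligand of killer cell immunoglobulin-like receptors, had 82.4 and 81.1 CPM with NALA, 82.4 and 82.7 CPM with oxamate, 77.0 and 75.8 CPM in hypoxia, and 47.6 and 50.5 CPM in normoxia. Every hypoxic library lay above both normoxia libraries, and hypoxia was higher than normoxia by 0.64 ± 0.045 (adjusted p = 2.08e-11). HLA-B, the other classical chain, had 9.86 and 10.2 CPM with NALA, 9.83 and 8.62 CPM with oxamate, 8.42 and 8.76 CPM in hypoxia, and 4.98 and 6.45 CPM in normoxia. It was the least expressed of the 4 heavy chains and had the widest relative spread between normoxia libraries. The rise in hypoxia was 0.58 ± 0.13 (adjusted p = 0.000345), and the 3 hypoxic conditions did not differ by a passed test from each other. HLA-B and HLA-C overlap in the annotation, on the same strand, by 1.15% of the exon bases of HLA-B and 1.40% of those of HLA-C.

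The non-classical chains parted from each other. HLA-E, which binds leader peptides of other class I chains and is read by the NKG2A receptor of natural killer cells, had 363.5 and 365.2 CPM with NALA, 393.3 and 398.6 CPM with oxamate, 398.2 and 394.8 CPM in hypoxia, and 190.0 and 197.9 CPM in normoxia. It was higher in hypoxia by 1.03 ± 0.031 (adjusted p = 5.99e-18), the largest rise among the 9 with TAPBP close behind. With NALA it was lower than with oxamate by a small step (-0.12 ± 0.031, adjusted p = 0.00155), and the libraries of those conditions did not overlap. HLA-E took 75.9% to 76.0% of the summed counts of the 4 heavy chains in hypoxia, against 70.8% in both normoxia libraries, and 75.9% to 76.7% in the libraries with oxamate, with or without NALA.

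HLA-F, a chain found partly without peptide and recognised by an activating natural killer cell receptor, had 22.4 and 24.8 CPM with NALA, 31.2 and 30.0 CPM with oxamate, 41.3 and 40.1 CPM in hypoxia, and 25.9 and 24.6 CPM in normoxia. It was higher in hypoxia than in normoxia by 0.69 ± 0.063 (adjusted p = 1.71e-09), lower with oxamate than in hypoxia (-0.41 ± 0.063, adjusted p = 3.60e-06) and lower with NALA than with oxamate (-0.37 ± 0.070, adjusted p = 7.64e-05). The NALA and normoxia libraries overlapped, and their difference did not pass (-0.09 ± 0.070, adjusted p = 0.266), although HLA-F was called lower with NALA under upper quartile scaling (-0.24, adjusted p = 0.00378) and library totals (-0.44, adjusted p = 7.13e-06). HLA-F shares 12.3% of its exon bases with HLA-F-AS1 on the opposite strand, and the labels do not say whether counting used strand. HLA-F-AS1 had 4.32 and 3.67 CPM with NALA, 0.890 and 1.13 CPM with oxamate, 15.5 and 15.1 CPM in hypoxia, and 0.781 and 0.727 CPM in normoxia. It rose in hypoxia by 4.34 ± 0.17 and fell by 3.92 with oxamate, in the same directions as HLA-F, but rose with NALA by 1.97 where HLA-F fell. Without strand, reads of the shared bases cannot be assigned to HLA-F or to its antisense partner.

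The light chain rose in hypoxia and again with oxamate. B2M, the subunit shared by all class I molecules, had 323.7 and 309.2 CPM with NALA, 369.3 and 355.2 CPM with oxamate, 230.2 and 227.5 CPM in hypoxia, and 158.1 and 151.1 CPM in normoxia. All 4 conditions were apart, in the order normoxia, hypoxia, NALA, oxamate, and each step between neighbours in that order passed. Hypoxia was higher than normoxia by 0.57 ± 0.036 (adjusted p = 2.62e-12), and oxamate was higher than hypoxia by 0.66 ± 0.034 (adjusted p = 5.28e-14). NALA was lower than oxamate (-0.20 ± 0.034, adjusted p = 2.91e-05). Counts of B2M divided by the summed counts of the 4 heavy chains were 0.677 and 0.642 with NALA, 0.715 and 0.683 with oxamate, 0.438 in both hypoxia libraries, and 0.589 and 0.541 in normoxia. The light chain was thus lowest relative to these heavy chains in hypoxia without drug, where the chains had risen by more than B2M in total.

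TAP1 and TAP2, the subunits that pair to form the peptide pump, moved against each other in every treatment step. TAP1 had 24.05 and 26.5 CPM with NALA, 18.6 and 20.1 CPM with oxamate, 31.8 and 32.0 CPM in hypoxia, and 25.7 and 28.4 CPM in normoxia. TAP2 had 48.9 and 49.1 CPM with NALA, 79.1 and 75.9 CPM with oxamate, 26.0 and 25.6 CPM in hypoxia, and 75.1 and 79.5 CPM in normoxia. TAP1 was highest where TAP2 was lowest, and the TAP2 libraries with oxamate overlapped those in normoxia.

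TAP2 fell in hypoxia (-1.58 ± 0.051, adjusted p = 2.08e-17) and rose with oxamate by 1.59 ± 0.052 (adjusted p = 1.35e-17). Its difference between oxamate and normoxia did not pass (0.002 ± 0.045, adjusted p = 0.978), and scaled to library totals it was lower with oxamate (-0.39, adjusted p = 8.64e-08). NALA brought TAP2 down (-0.66 ± 0.049, adjusted p = 7.09e-11), to a level between hypoxia and normoxia. TAP1 rose by 0.24 ± 0.069 in hypoxia (adjusted p = 0.00444), fell with oxamate (-0.72 ± 0.074, adjusted p = 8.70e-09) and rose with NALA by 0.39 ± 0.079 (adjusted p = 0.000159). Within a library, counts of TAP1 divided by counts of TAP2 were 0.492 and 0.540 with NALA, 0.235 and 0.265 with oxamate, 1.22 and 1.25 in hypoxia, and 0.343 and 0.357 in normoxia. This ratio does not depend on library scaling, and TAP1 exceeded TAP2 in both hypoxia libraries and in no other library.

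TAP2 shares 32.3% of its exon bases with a protein-coding gene on the same strand (ENSG00000250264), so counts can be split between them. That gene had 11.1 and 8.39 CPM with NALA, 8.90 and 8.13 CPM with oxamate, 1.39 and 2.99 CPM in hypoxia, and 6.21 and 5.82 CPM in normoxia. Summed with it, TAP2 had 60.0 and 57.5 CPM with NALA, 88.0 and 84.0 CPM with oxamate, 27.4 and 28.6 CPM in hypoxia, and 81.4 and 85.3 CPM in normoxia. The sums kept hypoxia lowest, with no overlap with any other condition.

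TAPBP had the widest range of the 9 genes over the conditions, 5.03 times between the highest and the lowest mean. Tapasin RNA stood at 11.9 and 13.9 CPM with NALA, 19.1 and 18.7 CPM with oxamate, 66.6 and 63.1 CPM in hypoxia, and 32.3 and 31.9 CPM in normoxia. No pair of conditions overlapped, and all 6 differences passed. Hypoxia was higher than normoxia by 1.01 ± 0.059 (adjusted p = 6.44e-13). Oxamate was lower than hypoxia (-1.78 ± 0.065, adjusted p = 9.21e-17) and also lower than normoxia (-0.76 ± 0.070, adjusted p = 1.55e-09). NALA took TAPBP lower still, below oxamate (-0.54 ± 0.084, adjusted p = 6.09e-06) and below hypoxia (-2.32 ± 0.071). TAPBP counts divided by B2M counts in the same library were 0.0367 and 0.0449 with NALA, 0.0517 and 0.0527 with oxamate, 0.289 and 0.277 in hypoxia, and 0.204 and 0.211 in normoxia.

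**Figure D3:**
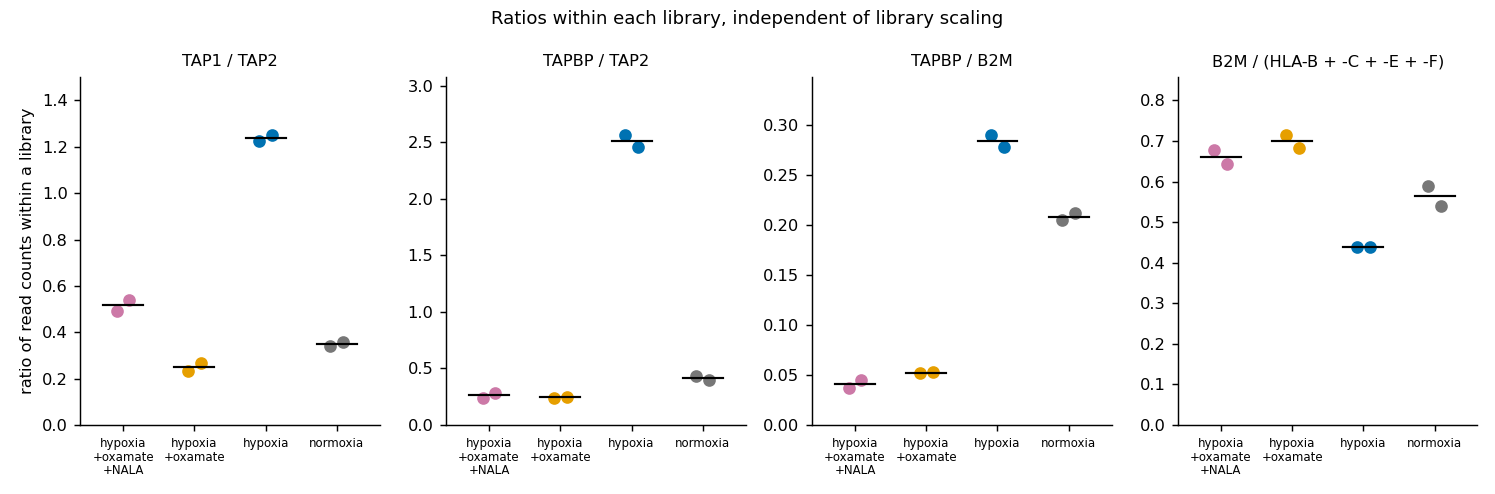
Ratios of read counts within each library for TAP1 over TAP2, TAPBP over TAP2, TAPBP over B2M, and B2M over the summed heavy chains HLA-B, HLA-C, HLA-E and HLA-F, with a point for each library and a line for the mean of each condition; axes start at 0. TAP1 over TAP2 is 1.22 and 1.25 in hypoxia and no more than 0.540 elsewhere, and TAPBP over TAP2 is 2.56 and 2.46 in hypoxia and no more than 0.430 elsewhere.

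NLRC5 had the signs of TAP2 in all 3 treatment steps, and in hypoxia it fell where all 4 heavy chains rose. It had 12.5 and 12.6 CPM with NALA, 15.5 and 17.0 CPM with oxamate, 7.63 and 9.93 CPM in hypoxia, and 21.1 and 21.5 CPM in normoxia. Both hypoxia libraries were the lowest, both normoxia libraries were the highest, and no conditions overlapped. Hypoxia was lower than normoxia (-1.28 ± 0.10, adjusted p = 1.28e-10) and oxamate was higher than hypoxia by 0.89 ± 0.11 (adjusted p = 8.86e-08). NALA was lower than oxamate (-0.37 ± 0.10, adjusted p = 0.00345) and stayed above hypoxia (0.51 ± 0.11, adjusted p = 0.000258), although the second difference did not pass with library totals (0.23, adjusted p = 0.0643). Oxamate was lower than normoxia (-0.39 ± 0.094, adjusted p = 0.000775), a call that was lost with DESeq2 (adjusted p = 0.0509) and without hypoxia+oxamate replicate 1 (-0.23, adjusted p = 0.10).

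Set against the untreated cells in normoxia, HLA-B, HLA-C, HLA-E and B2M were higher in both drug conditions. With oxamate in hypoxia against normoxia, HLA-B was higher by 0.68 ± 0.13, HLA-C by 0.75 ± 0.045, HLA-E by 1.03 ± 0.031 and B2M by 1.23 ± 0.035, while TAP1, TAPBP and NLRC5 were lower. HLA-F was higher by 0.28 ± 0.067 with TMM, but stood at -0.11 with library totals (adjusted p = 0.147). In counts, 5 of 9 members were called higher and 3 lower, where 31.9% of all tested genes were called higher and 40.1% lower (72% in either direction). Beyond a fold change of 1.5, 3 were higher (HLA-C, HLA-E and B2M) and 1 lower (TAPBP), where 13.8% and 23.5% of all tested genes were. With NALA and oxamate against normoxia, 4 were called higher (HLA-B, HLA-C, HLA-E and B2M) and 3 lower (TAP2, TAPBP and NLRC5), where 35.9% of all tested genes were called higher and 36.8% lower (72.7% in either direction). HLA-F and TAP1 were also called lower there with upper quartile scaling and with library totals (TAP1 at -0.25 and -0.45, adjusted p = 0.00443 and 1.16e-05). Beyond a fold change of 1.5, the same 4 were higher and 2 (TAPBP and NLRC5) were lower, where 17.8% and 20.7% of all tested genes were. With NALA and oxamate against hypoxia, 3 were called higher (B2M, TAP2 and NLRC5) and 4 lower (HLA-E, HLA-F, TAP1 and TAPBP), where 38.5% of all tested genes were called higher and 40.2% lower (78.6% in either direction). Beyond a fold change of 1.5, TAP2 alone was higher and 2 (HLA-F and TAPBP) were lower, where 21.7% and 25.9% of all tested genes were. These comparisons share libraries with those above and are not separate evidence. HLA-C against hypoxia stood at 0.10 ± 0.044 with NALA (adjusted p = 0.0515), with a sign that turned under upper quartile scaling (-0.16) and library totals (-0.19).

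Scaling matters for the small differences because TMM factors ran from 0.879 with oxamate to 1.15 in normoxia. Scaling to library totals moved the median of all genes by -0.32 for oxamate against hypoxia, -0.28 for NALA against hypoxia, -0.39 for oxamate against normoxia and -0.35 for NALA against normoxia. With library totals the share of called genes that were higher was 32.7% for oxamate against hypoxia (44.4% with TMM), 36.7% for NALA against hypoxia (48.9%), 24.5% for oxamate against normoxia (44.3%) and 31.1% for NALA against normoxia (49.4%). Upper quartile scaling moved the median by 0.11 for hypoxia against normoxia, -0.19 for NALA against oxamate, -0.26 for NALA against hypoxia and -0.15 for NALA against normoxia. With it the share was 39.6% for NALA against oxamate (51.2% with TMM) and 37.8% for NALA against hypoxia. Under all 4 scalings TAP2 and NLRC5 fell in hypoxia and rose with oxamate, and TAPBP rose in hypoxia and fell with oxamate. B2M also rose in hypoxia and again with oxamate under each of them.

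**Figure D4:**
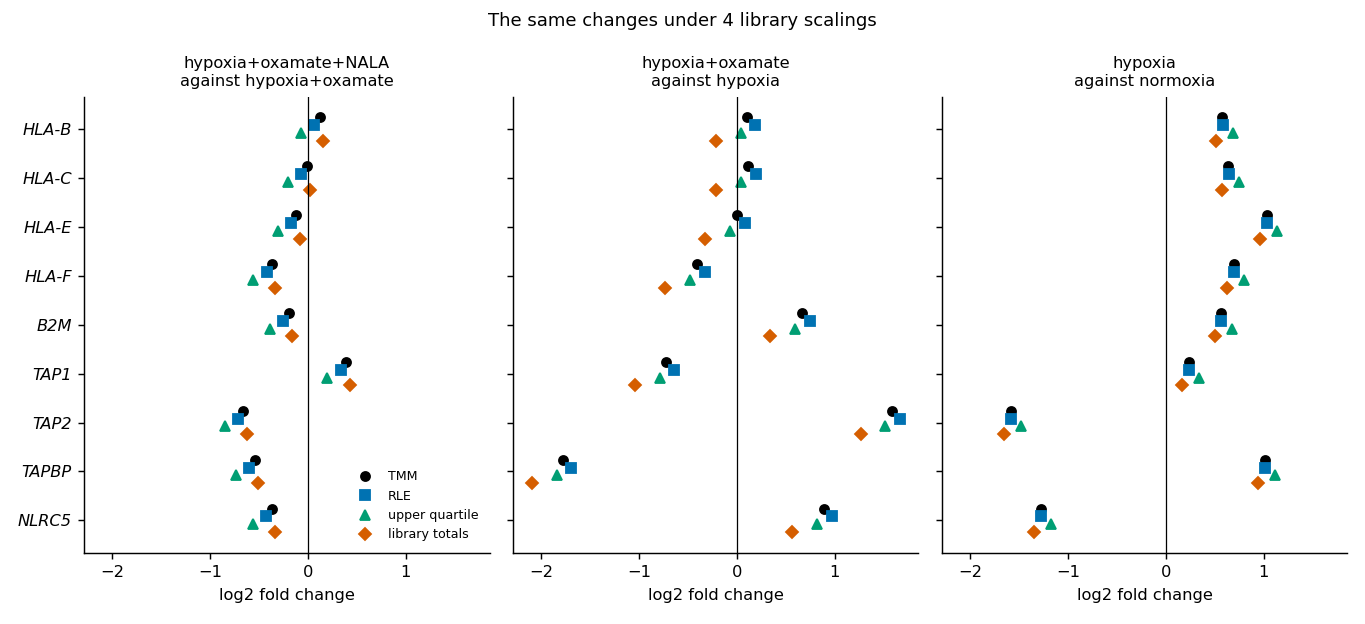
Log2 fold changes of the 9 genes under 4 library scalings (TMM, RLE, upper quartile and library totals without further scaling) for hypoxia+oxamate+NALA against hypoxia+oxamate, hypoxia+oxamate against hypoxia, and hypoxia against normoxia. In the oxamate panel library totals shift every gene to the left and move HLA-B and HLA-C across 0 (to -0.22 and -0.21), while TAP2 (1.27 to 1.67), TAPBP (-2.10 to -1.70) and NLRC5 keep their sides.

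Calreticulin and calnexin, the chaperones that fold class I heavy chains, had the signs of TAP2 in all 3 treatment steps. CALR, the lectin chaperone calreticulin, had 543.3 and 525.9 CPM with NALA, 762.7 and 753.8 CPM with oxamate, 231.5 and 227.8 CPM in hypoxia, and 545.9 and 549.2 CPM in normoxia. It fell by 1.25 in hypoxia, rose with oxamate by 1.72 and fell by 0.50 with NALA. CANX, the membrane chaperone calnexin, fell by 0.44 in hypoxia, rose with oxamate by 1.09 and fell by 0.20 with NALA. PDIA3, the thiol oxidoreductase ERp57 of the loading complex, rose by 0.17 in hypoxia and by 0.69 with oxamate and fell by 0.59 with NALA. The peptide trimming enzyme ERAP1 was higher in hypoxia (0.46) and lower with NALA (-0.64), like PDIA3, but was lower with oxamate (-0.59), where CALR, CANX and PDIA3 rose. ERAP2, its partner enzyme, did not pass in hypoxia (0.16, adjusted p = 0.0740), fell by 0.22 with oxamate, a call that was lost with RLE (-0.14, adjusted p = 0.127), and fell by 0.56 with NALA. Of these 6 genes (with TAPBPL), 2 rose and 2 fell in hypoxia, 3 rose and 2 fell with oxamate, and none rose and 5 fell with NALA, with medians of -0.05, 0.46 and -0.53. Of all tested genes, 36.7% rose and 36.8% fell in hypoxia, 35.7% rose and 44.8% fell with oxamate, and 33.2% rose and 31.7% fell with NALA, with medians of 0.02, -0.20 and -0.02. Those shares are the background for each list count that follows, with 73.5%, 80.5% and 64.9% of all genes called in either direction. The list counts are with TMM unless another scaling is named. Library totals moved the median of all genes by -0.32 for oxamate against hypoxia. Calls of small changes with oxamate can therefore be lost, turned or gained with that scaling.

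The inducible proteasome subunits PSMB8 and PSMB9, which shape peptides for class I, were low in every condition. PSMB8 had 5.85 and 4.85 CPM with NALA, 5.57 and 5.30 CPM with oxamate, 7.40 and 8.66 CPM in hypoxia, and 6.29 and 6.51 CPM in normoxia. PSMB9, the neighbour of TAP1 in the MHC, had 4.12 and 4.77 CPM with NALA, 6.58 and 5.83 CPM with oxamate, 4.45 and 4.51 CPM in hypoxia, and 3.39 and 4.17 CPM in normoxia. In hypoxia PSMB8 rose by 0.33 (lost with library totals, adjusted p = 0.0831), and PSMB9 (0.24) and PSMB10 (0.05) did not pass. With oxamate PSMB8 fell by 0.56. PSMB9 rose by 0.47 and PSMB10 by 0.51 with oxamate under TMM, and neither passed with library totals (0.15 and 0.19, adjusted p = 0.369 and 0.0918). Over the 5 genes of this list, which adds the proteasome activator subunits PSME1 and PSME2, 2 rose and 1 fell in hypoxia, 4 rose and 1 fell with oxamate, and 0 rose and 4 fell with NALA, against 73.5%, 80.5% and 64.9% of all genes called. With library totals PSME1 did not pass with oxamate either (-0.02, adjusted p = 0.647, against 0.30 with TMM), which leaves PSME2 as the only rise. The largest changes were those of PSME1 in hypoxia (0.72) and PSME2 with oxamate (0.60). The 3 constitutive counterparts PSMB5, PSMB6 and PSMB7 all fell in hypoxia and all rose with oxamate, by medians of -0.16 and 0.99, although PSMB6 and PSMB7 did not pass in hypoxia with upper quartile scaling (adjusted p = 0.224 and 0.907).

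Among 13 transcription factors of class I promoters, 3 rose and 6 fell in hypoxia, 7 rose and 6 fell with oxamate, and 3 rose and 6 fell with NALA, where 73.5%, 80.5% and 64.9% of all tested genes were called in either direction. RFX5, a subunit of the complex that recruits NLRC5 to class I promoters, had 14.9 and 14.8 CPM with NALA, 19.9 and 20.3 CPM with oxamate, 15.0 and 13.9 CPM in hypoxia, and 25.0 and 26.0 CPM in normoxia. It fell by 0.81 in hypoxia, rose with oxamate by 0.47 (0.15 and not passed with library totals, adjusted p = 0.0848) and fell by 0.44 with NALA, the same signs as NLRC5. IRF1, an interferon-induced activator, had 14.5 and 14.8 CPM with NALA, 13.9 and 12.9 CPM with oxamate, 32.6 and 34.9 CPM in hypoxia, and 32.4 and 31.8 CPM in normoxia. It fell by 1.34 with oxamate, while the difference between hypoxia and normoxia did not pass (0.07 ± 0.064, adjusted p = 0.310) except with upper quartile scaling (0.18, adjusted p = 0.0161). The largest changes in the list were falls of NFYA in hypoxia (-0.82) and of RFXAP with oxamate (-2.34), and rises of RELA in hypoxia (0.71), of RFXANK with oxamate (1.17) and of NFYA with NALA (1.54). The rise of RELA with oxamate (0.21 with TMM) was smaller in size than the shift of the median with library totals (-0.32).

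Among 6 genes that repress class I transcription or turn class I over, 1 rose and 5 fell in hypoxia, 2 rose and 2 fell with oxamate, and 5 rose and 1 fell with NALA, where WWP2 took a negative sign with upper quartile scaling (-0.07). Of all tested genes, 73.5% were called in hypoxia, 80.5% with oxamate and 64.9% with NALA. EZH2, the methyltransferase of the Polycomb repressive complex, had 53.0 and 54.2 CPM with NALA, 79.2 and 79.1 CPM with oxamate, 48.2 and 43.5 CPM in hypoxia, and 59.8 and 59.6 CPM in normoxia. It fell by 0.38 in hypoxia, rose with oxamate by 0.79 and fell by 0.56 with NALA. EED, another subunit of that complex, fell by 1.49 with oxamate and rose with NALA by 1.37. TMEM127 fell by 1.31 in hypoxia, and WWP2, a ubiquitin ligase, rose with oxamate by 1.09.

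**Figure D5:**
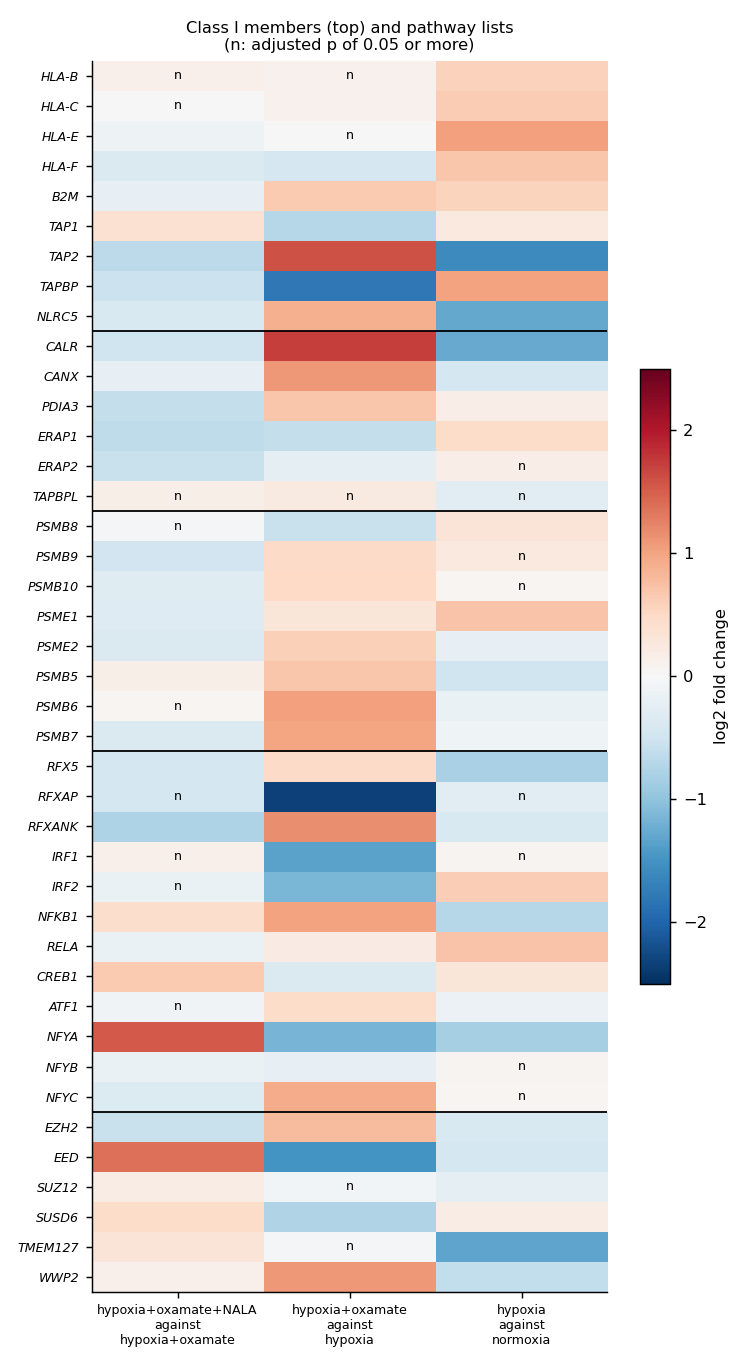
Log2 fold changes (colour scale from -2.5 to 2.5) of the 9 class I genes and of genes from the pathway lists, in 4 groups, in rows, for hypoxia+oxamate+NALA against hypoxia+oxamate, hypoxia+oxamate against hypoxia, and hypoxia against normoxia, in columns; n marks an adjusted p of 0.05 or more. CALR shows the same signs as TAP2 in the 3 columns (-0.50, 1.72 and -1.25), and IRF1 is marked n in 2 of them.

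Interferon-stimulated genes moved in both directions. Of 22 listed, 13 were tested, of which 7 rose and 3 fell in hypoxia, 3 rose and 6 fell with oxamate, and 4 rose and 5 fell with NALA, with medians of 0.34, -0.26 and 0.23. The calls, 10 of 13 in hypoxia and 9 of 13 in each of the other steps, stand beside 73.5%, 80.5% and 64.9% of all tested genes. IFIT1 rose in hypoxia by 2.01 while IFIT3, of the same family, fell by 0.77, and IRF9, a DNA-binding factor of the type I interferon response, fell by 2.68 with oxamate and rose with NALA by 1.64. The chemokines CXCL9, CXCL10 and CXCL11 were not tested, with no more than 3 counts in any library. Of 5 genes of interferon gamma signalling (the receptor subunits IFNGR1 and IFNGR2, the kinases JAK1 and JAK2, and SOCS1, an inhibitor of those kinases), 2 rose and 1 fell in hypoxia, 1 rose and 3 fell with oxamate, and 3 rose and 1 fell with NALA. The rise with oxamate was that of JAK1 (0.31 with TMM), smaller in size than the shift of the median with library totals (-0.32). The fall in hypoxia was that of SOCS1 (-1.40 ± 0.54, adjusted p = 0.0240). SOCS1 was also among the rises with NALA (1.79 ± 0.64, adjusted p = 0.0179). It lay close to the floor, at 0.339 and 0.176 CPM in hypoxia and 0.194 and 0.121 CPM with oxamate. Its levels were 0.407 and 0.693 CPM with NALA, and 0.856 and 0.537 CPM in normoxia.

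Apart from HFE and MR1, the other listed class I-like and MHC class II genes were scarce. HLA-G had no more than 1 count in any library and was not tested. Of 6 other class I-like molecules 2 were tested, MR1, which presents vitamin B metabolites, and HFE, which regulates iron uptake. HFE rose in hypoxia by 1.10 and MR1 by 1.00, and with oxamate they fell (-1.36 and -2.10). Of 10 MHC class II genes, 5 were at 0 in every library, among them HLA-DRA, and CD74, the invariant chain, had no more than 3 counts. CIITA, the class II transactivator related to NLRC5, stayed between 0.0774 and 1.296 CPM.

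The genes most like each member over the 8 libraries were taken by Pearson correlation of log2 CPM among 9253 candidates, as a description: the libraries fall into 4 conditions, so many genes reach high values. TAP2 was closest to CCDC137 and SCLY (r = 0.998 for each), both lowest in hypoxia, at 29.6 and 8.34 CPM against 83.2 and 37.5 CPM in normoxia. TAPBP was closest to ARHGAP23 and KIRREL1 (r = 0.998 for each). B2M was closest to TMBIM6 and RPS27, HLA-E to PTTG1IP and CAT, HLA-C to PHC1 and AP2B1, and HLA-F to APOBEC3C and TMEM134 (r between 0.991 and 0.998). TAP1 was closest to TOGARAM1 and SMIM3, and NLRC5 to ZNF271P and DYNLL2 (r between 0.987 and 0.990). HLA-B, the least counted heavy chain, had the lowest best value, with YIPF1 (r = 0.972) and NPRL2 (r = 0.969).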

How the data were processed

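RNA of the human line KYSE150 was measured in 8 libraries, 2 per condition. The authors deposited raw counts per gene as 1 table of whole numbers, with no scaling. The tools FastQC 0.11.9, STAR 2.7.8a and RSEM 1.3.3 are named per the submitters' processing notes, with hg38 and GRCh38 and no role given, and the counts may be rounded RSEM estimates. Whether counting used strand is not given in the sources used here.

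Analysis of the counts used edgeR 4.0.16 and limma 3.58.1 in R 4.3.3. The low-count filter was filterByExpr at 10 counts, and TMM set the library scale. All 8 libraries entered 1 robust quasi-likelihood fit of 4 group means, which leaves 4 residual degrees of freedom, and 6 two-sided comparisons were read from it. P-values were adjusted by Benjamini-Hochberg across the 15554 genes tested. The common biological coefficient of variation was 3.06%. Standard errors were derived from the F statistic. Levels per kilobase use the longest APPRIS principal transcript of GENCODE release 29. The floor covers counting error only. The procedure was tested on simulated data in which few genes changed, in random directions. That test does not cover the choice of scaling where most genes change. The fit did not pair libraries by replicate number, since the labels do not say what a shared number means. Correlations of same-numbered deviations lay between -0.0502 and 0.0118, and counting noise can hide a pairing. With 2 libraries against 2, within-library ratios have no test.

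Other settings tried were RLE and upper quartile scaling, omission of the count filter, a floor of 50 counts in 2 libraries, DESeq2 1.42.0, testing beyond 1.5-fold, replicate number as block, fits of only the 2 groups compared, and omission of single libraries. Scaling to library totals was added after seeing the data. The members and gene lists were chosen with earlier results of these data known. All 9 members are named. Some listed genes are not reported here. Listed pathway genes are named where they are the largest called change of a list in a direction, or belong to HLA-G, IRF1, PSMB8, PSMB9, PSMB10, CALR, CANX, PDIA3, ERAP1, ERAP2, RFX5, EZH2, CIITA and CD74. Each member's 2 most correlated genes with a mean log2 CPM (prior count 2) of at least 3 are also named. Other listed genes named with values, and overlapping genes, were chosen after their values were seen.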

Additional observations from a re-analysis of the deposited data

How the results depend on the processing

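Of 54 values (9 members in 6 comparisons), 39 kept their direction and their side of the threshold under every alternative but the test against a fold change of 1.5. That test called 5726 genes in hypoxia against normoxia, 8208 for oxamate against hypoxia, 3818 for NALA against oxamate, 7398 for NALA against hypoxia, 5801 for oxamate against normoxia and 5983 for NALA against normoxia. It left 3 members higher in hypoxia against normoxia, 0 higher and 0 lower for NALA against oxamate, 1 higher and 2 lower for NALA against hypoxia, and 3 higher and 1 lower for oxamate against normoxia, since it asks for a larger change. Members called lower were 5 with library totals for oxamate against hypoxia, and 5 with library totals and with upper quartile scaling for NALA against normoxia.

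Signs turned only for values near 0 or under a scaling. For oxamate against hypoxia, HLA-E stood at 0.080 with RLE and with DESeq2, 0.033 with the stricter filter, 0.10 with the 2 groups alone (adjusted p = 7.21e-05) and between -0.0125 and 0.12 with 1 library left out. There library totals gave -0.22 for HLA-B and -0.21 for HLA-C. For NALA against oxamate, HLA-B stood at -0.071 with upper quartile scaling and between -0.068 and 0.14 with 1 library left out. HLA-C stood at 0.021 with library totals, -0.21 with upper quartile scaling, -0.13 with the stricter filter (both called lower) and between -0.12 and 0.008 with 1 library left out. For NALA against hypoxia, HLA-B stood at -0.034 with upper quartile scaling and -0.060 with library totals, and HLA-C at -0.16 and -0.19. For oxamate against normoxia, TAP2 stood at -0.037 without a filter, -0.39 with library totals and between -0.052 and 0.13 with 1 library left out, and HLA-F at -0.11 with library totals. The cause was not tested, except that a scaling moves all genes together.

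Leaving out 1 library gave 6 to 7 members higher in hypoxia against normoxia, 3 to 5 for oxamate against hypoxia and 0 to 1 for NALA against oxamate, where the 0 came without hypoxia+oxamate replicate 1. A lone library left in a group is assumed to vary like the others. With the replicate number as a block, 11301 genes were called in hypoxia against normoxia, 12463 for oxamate against hypoxia and 9981 for NALA against oxamate, and no call of a member changed. Same-numbered deviations correlated between -0.0502 and 0.0118, but counting noise can hide a pairing, and the labels do not say what a shared number means. With 2 libraries a group, differences of HLA-B and NLRC5, which have few counts or a wide spread, carry standard errors of 0.094 to 0.13, against 0.030 to 0.036 for HLA-E and B2M.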

Other observations

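A class I pseudogene showed a wider change than any of the 9 genes. HLA-V (ENSG00000181126), a transcribed pseudogene at chr6:29790954-29797811 on GRCh38, was picked after its values were seen. It had 13.4 and 11.1 CPM with NALA, 6.78 and 6.51 CPM with oxamate, 90.3 and 91.9 CPM in hypoxia, and 7.25 and 7.62 CPM in normoxia. It rose in hypoxia by 3.61 ± 0.074 and fell with oxamate by 3.78, and it rose with NALA by 0.87 ± 0.11 (edgeR, adjusted p = 7.15e-21, 4.51e-21 and 1.70e-07). The hypoxia libraries lay above all others, as they did for HLA-F, TAP1, TAPBP and the antisense genes HLA-F-AS1 and PSMB8-AS1. The difference between oxamate and normoxia did not pass (-0.16 ± 0.11, adjusted p = 0.188).

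TAP1 has an antisense neighbour, PSMB8-AS1, on the opposite strand over 9.49% of its exon bases. It had 0.0508 and 0.204 CPM with NALA, 0.310 and 0.364 CPM with oxamate, 1.87 and 2.22 CPM in hypoxia, and 0.781 and 0.790 CPM in normoxia, a mean of 3.18% of the level of TAP1. It was chosen for its overlap.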
